A study of Mus musculus with 4 samples.

Results

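The genes described here are 53 genes of DNA double-strand break repair and of the Fanconi anaemia pathway, measured in irradiated and unirradiated MC38 cells. They were taken by symbol from the deposited count table, which holds 26561 genes, and all 53 were found in it. They fall into 13 genes of break sensing and signalling, 9 of end joining, 18 of homologous recombination and 13 of the Fanconi pathway. MC38 is a tumour line derived from a mouse colon adenocarcinoma, and the cells used were wild type. Irradiated cells (IR) received 1 X-ray fraction of 30 Gy and gave RNA 60 h later. Unirradiated cells (nonIR) received none, and no harvest time is given for them in the sources used here, so radiation and time in culture cannot be told apart. Each group holds 2 RNA-seq libraries of the whole culture, so fewer cells with a transcript and less of that transcript per cell cannot be told apart.

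A double-strand break is bound by the MRN complex, which activates the kinase ATM. Single-stranded DNA next to resected ends activates ATR with its partner ATRIP. The break is then either rejoined directly, by Ku, DNA-PKcs and ligase IV, or copied from the sister chromatid by homologous recombination, which needs resection of the ends, BRCA1 and BRCA2. The Fanconi pathway handles crosslinks between the strands: a core complex adds ubiquitin to FANCD2 and FANCI, and nucleases and recombination proteins finish the repair. Most of this response runs through modification and movement of proteins, and transcript levels are only one input to it. Recombination and Fanconi genes are usually expressed most in dividing cells.

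The libraries held 29180110 and 26059171 counts in the IR group and 27995608 and 29881492 in the nonIR group. The mean chi-square per gene between both libraries of a group was 4.73 in IR and 3.38 in nonIR, above the value of counting noise. The labels do not name separate cultures, so the p-values speak of the spread among these libraries, and that spread may be technical. The labels call the line epithelial. The 7 epithelial markers with a row in the table summed to 75.8 and 70.1 CPM (counts per 1000000) in IR and to 38.5 and 36.5 CPM in nonIR, nearly all of it Cdh1. Of the others, Krt19 had 46 and 31 counts in the IR libraries and 50 and 53 in the nonIR ones. Krt8 had 30 and 20 counts in IR and 6 and 3 in nonIR, and was called higher (log2 fold change 2.44). Epcam was at 0 and 1 counts in the IR libraries and at 0 in both nonIR ones. Krt18 and Krt20 had at most 4 counts in any library, and Vil1 at most 5. The 6 fibroblast markers summed to 1779 and 1797 CPM in the IR libraries and to 1205 and 1200 CPM in the nonIR ones, most of it Col1a2 and Col3a1. Immune markers, mostly Cd68, summed to 38.5 and 32.5 CPM in IR and to 4.99 and 4.04 CPM in nonIR, and endothelial markers to 6.22 and 6.55 CPM in IR and to 2.58 and 1.92 CPM in nonIR. The part of these markers in the results below was not tested.

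The repair genes were divided in direction, in about the same shares as all tested genes. Of the 53 members, all of which passed the filter on low counts, 17 were higher and 16 lower in IR cells at an adjusted p under 0.05 by edgeR's quasi-likelihood test, and 20 did not pass. That is 62.3% of the members, close to the 60.7% of all 15298 tested genes that passed. Over all tested genes 30.4% were called higher and 30.3% lower, and over the members 32.1% and 30.2%. The median log2 fold change was 0.04 over the members and 0.01 over all tested genes. With upper-quartile scaling, a setting chosen after the data were seen, 21 members were higher and 13 lower. A change of at least 1.5-fold was called for 9 members, or 16.98%, against 28.2% of all tested genes. Tested against a minimum fold of 1.2 (edgeR's glmTreat), 10 members were higher and 8 lower, where 39.1% of all tested genes passed, 20.8% as higher and 18.2% as lower. The 2 groups of libraries did not overlap for 47 of the 53 members, against 78.4% of all tested genes.

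The share of called genes differs with expression level. Among the 7173 tested genes with a mean between 10.8 and 113 CPM, the 10th and 90th percentiles of the members' own means, 69.9% were called, 28.6% as higher and 41.3% as lower. In this range 22.7% were called with a change of at least 1.5-fold, and the median absolute log2 fold change was 0.31, as it was over the members. The summed level of all 53 members was 3070 and 3122 CPM in the IR libraries, against 2847 and 2869 CPM in the nonIR libraries. The sum was thus slightly higher in IR although about as many members fell as rose. The members with the highest mean CPM over the 4 libraries, Mdc1, Rad50 and Brca1, were among those that rose. In nonIR alone Rif1, which fell, had a higher mean than Brca1 (169.5 against 139.9 CPM).

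**Figure D1:**
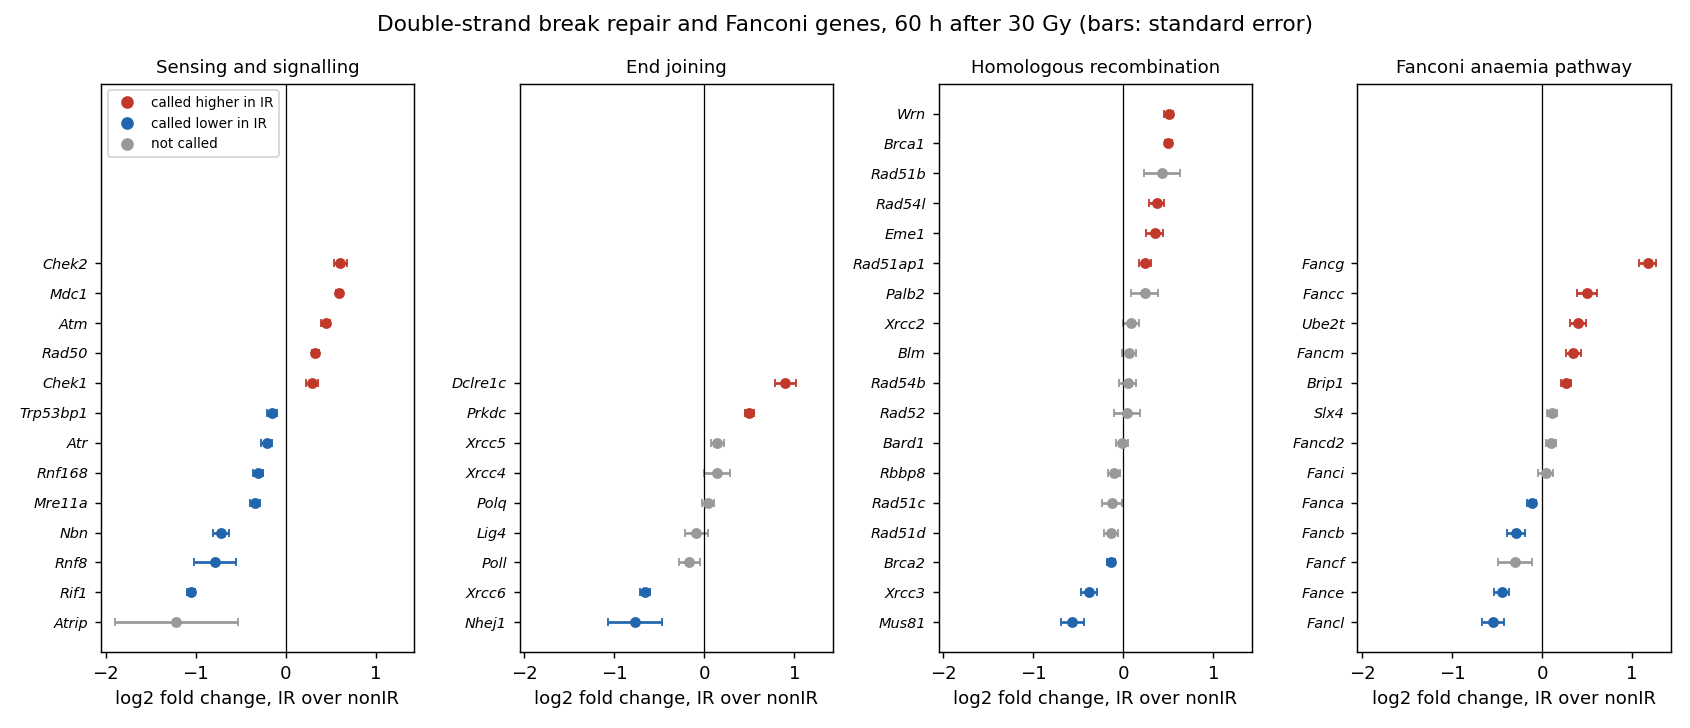
Log2 fold change of each of the 53 members, IR over nonIR, in 4 panels by role. Points are the edgeR estimates, bars are their standard errors, and colour gives the call at an adjusted p under 0.05. Every panel holds members on both sides of 0, from Fancg at 1.17 to Rif1 at -1.05 among the called ones.

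Of 13 sensing and signalling genes 5 were higher, 7 were lower and 1 did not pass. That is 92.3% called, against 60.7% of all tested genes and 69.9% of those in the members' range of expression. The median log2 fold change of these 13 was -0.21. The genes that rose encode the mediator MDC1, the kinases ATM, CHK1 and CHK2 and the MRN subunit RAD50. Those that fell encode both other MRN subunits, the ubiquitin ligases RNF8 and RNF168, the kinase ATR, and 53BP1 and RIF1.

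Mdc1 (ENSMUSG00000061607, chromosome 17, 35841515 to 35859670, GRCm38) encodes the scaffold that binds phosphorylated H2AX at a break. It was the most abundant member and had 421 and 436 CPM in the IR libraries, against 280 and 287 CPM in the nonIR libraries. The groups were well separated (log2 fold change 0.60, SE 0.03, adjusted p = 5.76e-73). Chek2 (ENSMUSG00000029521, chromosome 5, 110839979 to 110874145), which encodes the checkpoint kinase downstream of ATM, had 55.8 and 53.2 CPM in IR and 37.9 and 33.8 CPM in nonIR. Chek2 rose by 0.61 on the log2 scale (SE 0.07, adjusted p = 2.36e-16), about as much as Mdc1. Atm itself (ENSMUSG00000034218, chromosome 9, 53439149 to 53536740), the kinase that MRN activates, had 116 and 115 CPM in IR and 84.4 and 84.9 CPM in nonIR. Its replicates were nearly equal within each group (0.45, SE 0.05, adjusted p = 2.44e-17). Chek1, the checkpoint kinase downstream of ATR, rose less, with 59.2 and 53.3 CPM in IR and 46.5 and 45.5 CPM in nonIR (0.29, SE 0.07, adjusted p = 3.80e-05).

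Rif1 fell most of all called members. It encodes a partner of 53BP1 that limits resection of broken ends and also sets the timing of replication (ENSMUSG00000036202, chromosome 2, 52072832 to 52122383). Rif1 had 78.9 and 84.7 CPM in the IR libraries, against 164 and 175 CPM in the nonIR libraries, so that both IR libraries were at about the same level and far below both nonIR ones (log2 fold change -1.05, SE 0.05, adjusted p = 4.20e-107). Its exons overlap no other annotated gene. Trp53bp1, which encodes 53BP1, had 75.1 and 74.6 CPM in IR and 88.8 and 77.8 CPM in nonIR (-0.15, SE 0.05, adjusted p = 0.0101). The call for Trp53bp1 rests on nonIR replicate 1, without which its log2 fold change was -0.07 and its adjusted p = 0.388. Without nonIR replicate 2 it was -0.26 (adjusted p = 2.21e-04). Tubgcp4, on the other strand, shares part of its exons.

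The 3 subunits of MRN moved in different directions. Rad50 (ENSMUSG00000020380, chromosome 11, 53649519 to 53707319), the ATPase that tethers the ends, had 227 and 229 CPM in IR and 182 and 181 CPM in nonIR (log2 fold change 0.33, SE 0.04, adjusted p = 1.94e-17). Nbn (ENSMUSG00000028224, chromosome 4, 15957925 to 15992589), the subunit that recruits ATM, had 21.3 and 24.0 CPM in IR and 37.5 and 37.1 CPM in nonIR (-0.72, SE 0.09, adjusted p = 5.13e-15). Nbn was thus clearly lower in both IR libraries while Rad50 was higher in both. Mre11a (ENSMUSG00000031928, chromosome 9, 14784654 to 14837123), the nuclease, had 70.6 and 76.5 CPM in IR and 88.3 and 97.7 CPM in nonIR (-0.34, SE 0.05, adjusted p = 1.36e-09). Part of its exons overlaps Ankrd49 on the other strand, which also fell (-0.40).

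RNF8 and RNF168 place ubiquitin on chromatin around a break, and both of their genes were lower in IR. Rnf168 (ENSMUSG00000014074, chromosome 16, 32277459 to 32301434) had 81.5 and 79.1 CPM in IR and 99.7 and 98.8 CPM in nonIR (log2 fold change -0.31, SE 0.05, adjusted p = 2.96e-08). Rnf8 was scarce, with 98 and 85 counts in IR and 160 and 156 counts in nonIR (-0.78, SE 0.23, adjusted p = 1.85e-03). A protein-coding gene called Gm28043 shares exons and strand with it, and how reads were split between both is uncertain. Atr, the kinase of stalled forks and resected ends, had 60.0 and 59.4 CPM in IR and 66.6 and 71.6 CPM in nonIR (-0.21, SE 0.06, adjusted p = 9.27e-04). Its partner Atrip had only 10 and 8 counts in IR and 27 and 15 counts in nonIR. This gave the widest error among the members (-1.21, SE 0.68, adjusted p = 0.113), and no change of Atrip was detectable at these counts. Atrip exons overlap Trex1 on the same strand.

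Among 9 end-joining genes, 2 were higher, 2 were lower and 5 did not pass, with a median log2 fold change of 0.04. The called share was 44.4%, against 60.7% of all tested genes and 69.9% of those in the members' range of expression. The 2 end-joining genes that rose encode DNA-PKcs and the nuclease it controls, Artemis. Prkdc (ENSMUSG00000022672, chromosome 16, 15637866 to 15842235), the gene of DNA-PKcs, had 138 and 132 CPM in IR and 95.2 and 95.6 CPM in nonIR (log2 fold change 0.50, SE 0.05, adjusted p = 5.66e-24). Dclre1c, the Artemis gene (ENSMUSG00000026648, chromosome 2, 3424131 to 3464130), had 21.2 and 24.2 CPM in IR and 11.7 and 12.6 CPM in nonIR, a 1.86-fold rise (log2 fold change 0.90, SE 0.12, adjusted p = 1.15e-13). The opposite strand there carries exons of Suv39h2, which was lower in IR (-0.60).

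The Ku heterodimer, which is first to hold the ends, was unequal. Xrcc6 (ENSMUSG00000022471, chromosome 15, 81987835 to 82040085), the gene of Ku70, had 56.7 and 60.9 CPM in IR and 90.4 and 96.1 CPM in nonIR (log2 fold change -0.67, SE 0.06, adjusted p = 1.57e-31). Xrcc5, the gene of Ku80, had 48.1 and 44.8 CPM in IR and 39.8 and 44.4 CPM in nonIR and did not pass (0.14, SE 0.07, adjusted p = 0.0730). The value of Xrcc5 depended on single libraries: it was 0.22 without nonIR replicate 2, which passed (adjusted p = 0.0314), 0.09 without IR replicate 1 (adjusted p = 0.450) and 0.05 without nonIR replicate 1 (adjusted p = 0.630). Xrcc6 exons overlap Desi1 on the other strand, which fell less (-0.22).

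Genes of the ligation step were scarce. Nhej1, the gene of XLF, had 69 and 46 counts in IR and 96 and 101 in nonIR (log2 fold change -0.77, SE 0.30, adjusted p = 0.0167), but without IR replicate 2 it did not pass (-0.59, adjusted p = 0.144), which left 1 end-joining gene lower. Xrcc4, the partner of ligase IV, had 12.5 and 11.6 CPM in IR and 11.5 and 10.4 CPM in nonIR (log2 fold change 0.14, SE 0.14). Lig4, the ligase gene, had 14.9 and 13.1 CPM in IR and 14.96 and 14.9 CPM in nonIR (-0.09, SE 0.13), with libraries that overlap. Poll, a gap-filling polymerase, had a log2 fold change of -0.17 (SE 0.11). Polq, whose polymerase theta joins ends through short homologies, was at 52.6 and 52.1 CPM in IR and 51.9 and 49.8 CPM in nonIR (0.04, SE 0.07). None of these 4 passed, with adjusted p-values of 0.421, 0.558, 0.193 and 0.599 by edgeR.

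**Figure D2:**
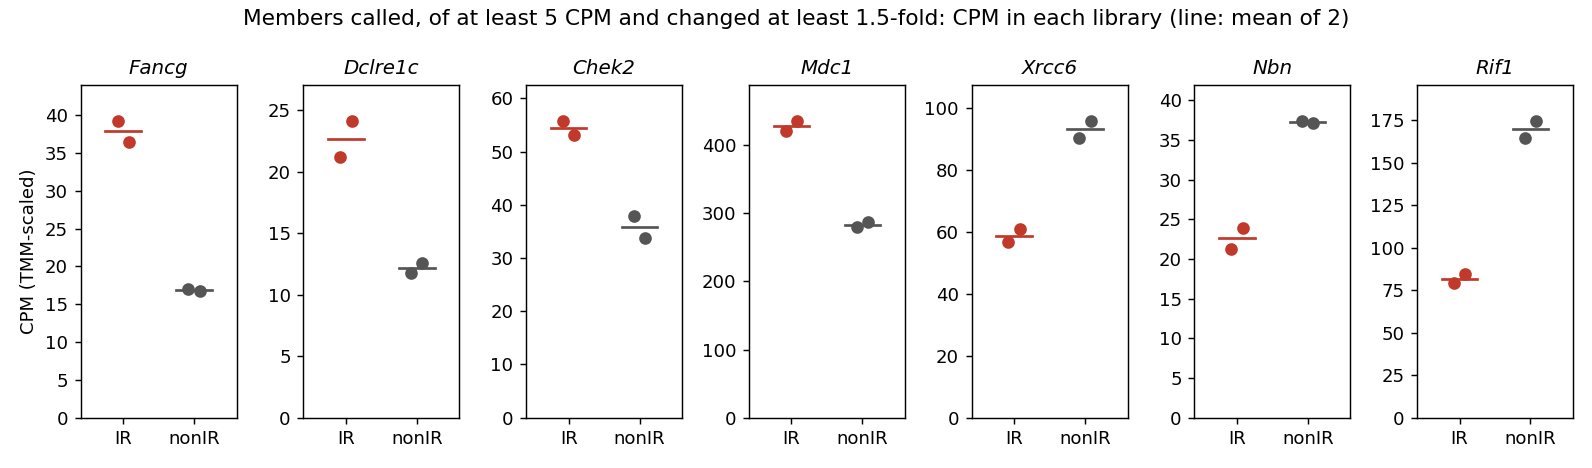
CPM, scaled by library size, in each library for the members that were called, averaged at least 5 CPM and changed at least 1.5-fold. Points are libraries, lines are the mean of 2, and each axis starts at 0. The IR points lie above the nonIR points for Fancg, Dclre1c, Chek2 and Mdc1 and below them for Xrcc6, Nbn and Rif1.

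Homologous recombination genes moved little. Of 18 members 5 were higher, 3 were lower and 10 did not pass, and none was called with a change of 1.5-fold or more. So 44.4% were called, where 60.7% of all tested genes were, 28.2% with a change of at least 1.5-fold. The median log2 fold change of these 18 was 0.06. Wrn (ENSMUSG00000031583, chromosome 8, 33234384 to 33385527), a RecQ helicase with an exonuclease domain, had 118 and 126 CPM in IR and 87.8 and 84.0 CPM in nonIR (0.50, SE 0.05, adjusted p = 1.81e-22). Brca1 (ENSMUSG00000017146, chromosome 11, 101488764 to 101551955), which promotes resection, had 194 and 202 CPM in IR and 139 and 141 CPM in nonIR (0.50, SE 0.04, adjusted p = 8.33e-33). These genes rose by the same factor of 1.41 to 1.42. The other RecQ helicase gene among the members, Blm, was at 40.5 and 42.9 CPM in IR and 38.7 and 41.1 CPM in nonIR. Its libraries overlapped (0.06, SE 0.08, adjusted p = 0.489).

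Bard1, Brca2 and Palb2, whose products work with BRCA1, did not pass as higher. Bard1, the obligate partner, had 45.0 and 49.3 CPM in IR and 48.0 and 47.4 CPM in nonIR (log2 fold change -0.02, SE 0.07, adjusted p = 0.856). Brca2 (ENSMUSG00000041147, chromosome 5, 150522630 to 150570329), which acts after resection, was slightly lower, at 116 and 116 CPM in IR and 131 and 124 CPM in nonIR (-0.14, SE 0.05, adjusted p = 6.84e-03), and without nonIR replicate 1 did not pass (-0.12, adjusted p = 0.0690). Palb2, the bridge between both, had 333 and 320 counts in IR and 231 and 329 counts in nonIR. Its nonIR libraries differ from each other by more than the IR libraries do, and it passed only when nonIR replicate 2 was left out (0.24 with all libraries, 0.46 and adjusted p = 0.0320 without that one). Without nonIR replicate 1 the value of Palb2 was 0.03 (adjusted p = 0.907). Rbbp8, whose product CtIP starts resection, had 49.1 and 49.5 CPM in IR and 53.1 and 52.4 CPM in nonIR (-0.10, SE 0.07, adjusted p = 0.197).

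Genes for strand exchange included both directions. Rad54l (ENSMUSG00000028702, chromosome 4, 116094264 to 116123690), a motor protein that remodels the joint between DNA molecules, had 38.2 and 40.7 CPM in IR and 32.2 and 28.7 CPM in nonIR (log2 fold change 0.37, SE 0.08, adjusted p = 1.80e-05). Part of its exons overlaps Lrrc41 on the other strand, which was lower in IR (-0.39). Rad54b, a relative of Rad54l, was at 27.5 and 27.7 CPM in IR and 26.2 and 27.2 CPM in nonIR (0.05, SE 0.09, adjusted p = 0.684). Rad51ap1, an accessory factor of strand exchange, rose (0.24, SE 0.06, adjusted p = 4.58e-04) but not without IR replicate 2 (0.14, adjusted p = 0.157). Xrcc3 (ENSMUSG00000021287, chromosome 12, 111803192 to 111813873), a factor of strand exchange, had 27.2 and 28.9 CPM in IR and 39.0 and 34.0 CPM in nonIR (-0.38, SE 0.09, adjusted p = 2.79e-05). Its exons share 12 bases with Klc1 on the other strand, a far more abundant gene that also fell (-0.60).

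Other genes of this step did not pass. Rad51b, at 198 and 188 counts in IR and 132 and 157 in nonIR, was at the threshold (log2 fold change 0.43, SE 0.20, adjusted p = 0.0504) and passed with RLE scaling (adjusted p = 0.0470). Rad51c (-0.13, SE 0.11, adjusted p = 0.327), Rad51d (-0.14, SE 0.08, adjusted p = 0.138) and Xrcc2 (0.09, SE 0.09, adjusted p = 0.397) were close to 0. Rad51d passed as lower when IR replicate 1 was left out (-0.24, adjusted p = 0.0349), and was at -0.05 without IR replicate 2 (adjusted p = 0.677). Rad52, a strand-annealing factor, was close to 0 (0.04, SE 0.15, adjusted p = 0.812).

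MUS81 and EME1 form a nuclease that cuts branched intermediates, and their genes moved apart. Mus81 (ENSMUSG00000024906, chromosome 19, 5482345 to 5488402) had 11.1 and 12.8 CPM in IR and 17.4 and 17.9 CPM in nonIR (log2 fold change -0.57, SE 0.13, adjusted p = 2.08e-05). Eme1 (ENSMUSG00000039055, chromosome 11, 94644996 to 94653964) had 28.6 and 31.4 CPM in IR and 25.1 and 21.9 CPM in nonIR (0.35, SE 0.09, adjusted p = 4.75e-04). The rise of Eme1 did not pass without nonIR replicate 2 (0.25, adjusted p = 0.0629). Both overlap abundant genes on the other strand, Efemp2 for Mus81 and Lrrc59 for Eme1.

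In the Fanconi pathway 5 of 13 genes were higher, 4 were lower and 4 did not pass, with a median log2 fold change of 0.10. These calls make up 69.2%, against 60.7% of all tested genes and 69.9% of those in the members' range of expression. The core complex that carries the ubiquitin ligase was split: Fancg, Fancc and Fancm rose, and Fanca, Fancb, Fance and Fancl fell. Without IR replicate 2 the count of lower genes was 2.

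Fancg (ENSMUSG00000028453, chromosome 4, 43002343 to 43010506) was the member that rose most. It encodes a scaffold of the core complex that binds FANCA. Fancg had 1169 and 969 counts in the IR libraries, against 466 and 487 in the nonIR libraries, or 39.3 and 36.5 CPM against 16.96 and 16.7 CPM. The rise was 2.25-fold (log2 fold change 1.17, SE 0.10, adjusted p = 1.95e-33). Both IR libraries were at more than double either nonIR library, and no annotated exon of another gene overlaps it. Fancc (ENSMUSG00000021461, chromosome 13, 63285043 to 63497278), another core subunit, had 22.4 and 22.6 CPM in IR and 16.9 and 14.9 CPM in nonIR (0.50, SE 0.11, adjusted p = 1.63e-05). Part of its exons overlaps 2010111I01Rik on the other strand, which did not pass (-0.22). Fancm (ENSMUSG00000055884, chromosome 12, 65075603 to 65132058), the translocase that anchors the complex on DNA, had 37.2 and 36.1 CPM in IR and 28.5 and 29.1 CPM in nonIR (0.35, SE 0.09, adjusted p = 1.14e-04).

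The lower core genes include the catalytic subunit. Fancl (ENSMUSG00000004018, chromosome 11, 26386135 to 26471876), the ubiquitin ligase, had 14.2 and 12.9 CPM in IR and 19.7 and 19.8 CPM in nonIR (log2 fold change -0.55, SE 0.12, adjusted p = 1.28e-05). It overlaps Vrk2 on the other strand, which also fell (-0.35). Fance (ENSMUSG00000007570, chromosome 17, 28313519 to 28326572), which contacts FANCD2, had 29.1 and 30.2 CPM in IR and 41.7 and 39.3 CPM in nonIR (-0.45, SE 0.08, adjusted p = 1.71e-07). Fance was separated from its nonIR level as clearly as Fancl. Fancb (ENSMUSG00000047757, chromosome X, 164980592 to 164997272), another core subunit, had 24.9 and 22.4 CPM in IR and 26.7 and 31.1 CPM in nonIR (-0.29, SE 0.10, adjusted p = 4.64e-03), and did not pass without IR replicate 2 (adjusted p = 0.0798) or without nonIR replicate 2 (-0.18, adjusted p = 0.203).

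Fanca, the core subunit that binds FANCG, was barely past the threshold. It had 98.4 and 101 CPM in IR and 109 and 106 CPM in nonIR (ENSMUSG00000032815, chromosome 8, 123268300 to 123318576; log2 fold change -0.11, SE 0.05, adjusted p = 0.0405). Fanca did not pass without IR replicate 1 (adjusted p = 0.156), without IR replicate 2 (0.0533) or without nonIR replicate 1 (0.125). Part of the exons of Fanca overlaps Zfp276 on the other strand, which did not pass (0.07). Fancf, an adaptor in the core, had 191 and 154 counts in IR and 217 and 210 in nonIR and did not pass (-0.30, SE 0.19, adjusted p = 0.153).

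Downstream of the core, the ubiquitin-conjugating enzyme gene Ube2t (ENSMUSG00000026429, chromosome 1, 134962565 to 134974162) had 35.5 and 34.2 CPM in IR and 23.9 and 29.1 CPM in nonIR (log2 fold change 0.39, SE 0.09, adjusted p = 2.17e-05). Without nonIR replicate 1 the rise of Ube2t was smaller (0.25, adjusted p = 0.0386). The targets of the ligase, Fancd2 (0.10, SE 0.06, adjusted p = 0.147) and Fanci (0.04, SE 0.08, adjusted p = 0.706), did not pass. Fancd2 passed only when nonIR replicate 2 was left out (0.16, adjusted p = 0.0474) or with upper-quartile scaling (0.17, adjusted p = 8.30e-03), and was at 0.01 without nonIR replicate 1 (adjusted p = 0.887). Brip1, a helicase that binds BRCA1, rose (0.26, SE 0.05, adjusted p = 4.62e-06), with 88.0 and 84.7 CPM in IR and 71.1 and 72.8 CPM in nonIR. Slx4, the scaffold of the crosslink nucleases, was at 78.3 and 82.0 CPM in IR and 73.4 and 75.3 CPM in nonIR (0.11, SE 0.06, adjusted p = 0.0816).

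Count ratios of partner genes within each library do not depend on how libraries are scaled. The pairs were chosen after the values were seen, as proteins known to work together, and with 2 libraries against 2 the smallest two-sided exact permutation p is 0.333, so the ratios are descriptions. There were 0.0937 and 0.104 Nbn counts per Rad50 count in the IR libraries, against 0.205 and 0.205 in the nonIR libraries. The ratio of Mre11a to Rad50 was 0.310 and 0.333 in IR and 0.484 and 0.540 in nonIR. Both MRN ratios were lower in each IR library than in each nonIR library. For Ku, the ratio of Xrcc6 to Xrcc5 was 1.18 and 1.36 in IR and 2.27 and 2.17 in nonIR.

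Other partners were compared in the same way. The ratio of Bard1 to Brca1 was 0.232 and 0.245 in IR and 0.346 and 0.336 in nonIR, and that of Mus81 to Eme1 was 0.387 and 0.408 in IR and 0.695 and 0.819 in nonIR. Rif1 counts per Trp53bp1 count were 1.05 and 1.14 in IR and 1.85 and 2.25 in nonIR. In the Fanconi core the ratio of Fancg to Fanca was 0.399 and 0.362 in IR and 0.155 and 0.157 in nonIR, whereas that of Fance to Fancc was 1.30 and 1.34 in IR and 2.46 and 2.64 in nonIR. For the enzymes that act as a pair, Ube2t per Fancl was 2.50 and 2.66 in IR and 1.21 and 1.47 in nonIR. The ratio of Fanci to Fancd2, which form the clamp that the core ubiquitinates, overlapped between groups, at 0.464 and 0.536 in IR and 0.511 and 0.527 in nonIR. Ratios show unequal change of partners, and say nothing of the proteins.

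**Figure D3:**
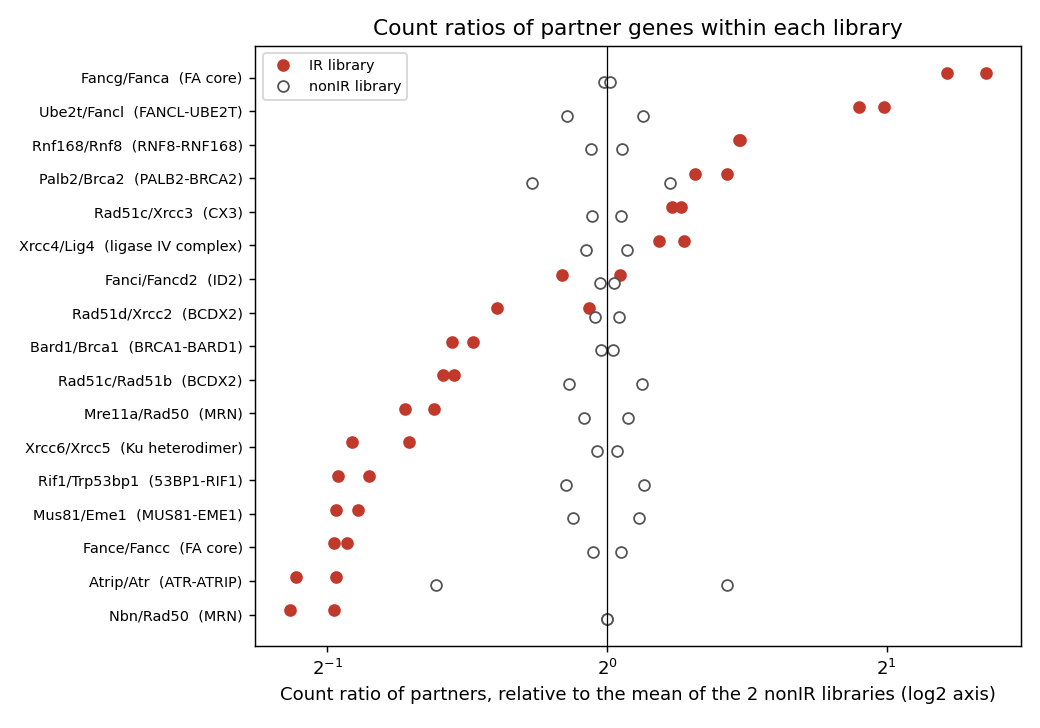
Count ratios of 17 partner pairs in each library, divided by the mean ratio of the 2 nonIR libraries (log2 axis). Filled points are IR libraries and open points nonIR libraries. Fancg/Fanca and Ube2t/Fancl lie furthest to the right in IR, Nbn/Rad50 and Atrip/Atr furthest to the left, and Fanci/Fancd2 overlaps.

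Levels of different members can be compared only per length, here as CPM per kilobase of annotated exon. On this scale Mdc1 (57.7 in IR, 38.2 in nonIR) and Rad50 (42.5 in IR, 33.8 in nonIR) ranked 1 and 2 of 53 in both groups. Brca1 was 3 in IR, at 23.2, and 6 in nonIR, at 16.4. The lowest members in both groups were Rnf8 (0.278 in IR, 0.477 in nonIR) and Atrip (0.0446 in IR, 0.105 in nonIR), which both share exons with another gene on the same strand. Rif1 had rank 27 in IR, at 7.79, and rank 7 in nonIR, at 16.1, and Fancg had rank 19 in IR, at 9.98, and rank 38 in nonIR, at 4.43.

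**Figure D4:**
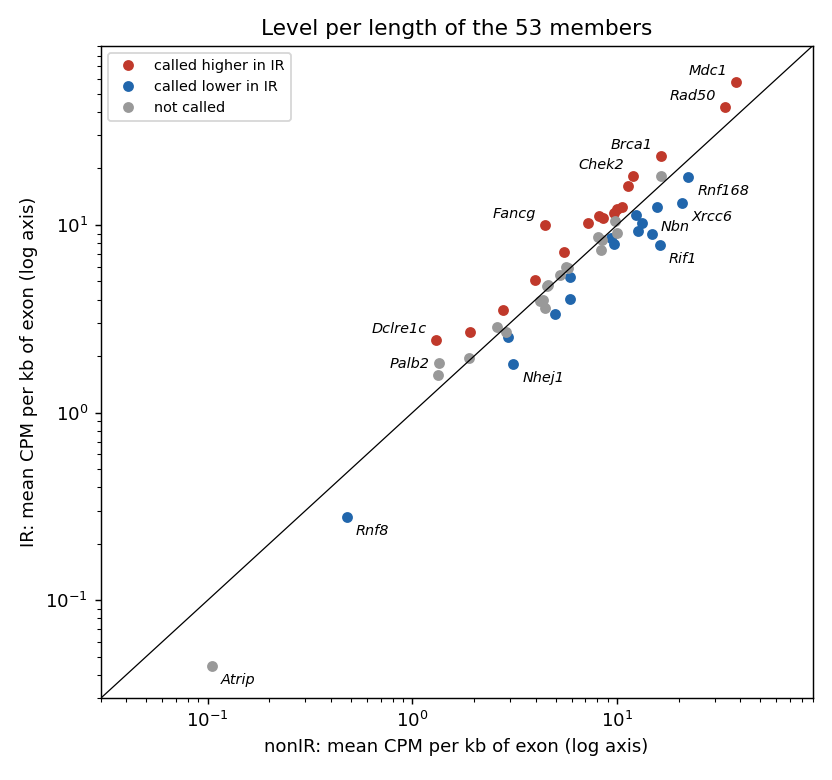
Mean CPM per kilobase of exon of the 53 members, IR on the vertical and nonIR on the horizontal axis, both logarithmic, coloured by call, with the line of equal level. Most points lie close to the line; Fancg and Dclre1c stand above it and Rif1, Nbn and Xrcc6 below.

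Exons of another annotated gene overlap those of 24 members, where any shared base counts as overlap. For 16 of the 24, an overlapping gene has over 10% as many counts as the member. Overlap was found for 11 of the 16 members called lower (68.8%) and for 5 of the 17 called higher (29.4%), against 37.7% and 33.9% of all tested genes called lower and higher. Among the 29 members without overlap, 12 were higher and 5 lower: Rif1, Nbn, Rnf168, Nhej1 and Fancb. These are 41.4% and 17.2% of the 29, against 31.5% and 29.6% of all tested genes without overlap. The strand setting of the counting is not given, so reads of a member and of a gene on the other strand cannot be told apart. The part of overlap in the lower calls was not tested.

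Other genes of the same pathways, 82 listed and 78 tested, fell more often than they rose. Of these, 16 were higher (20.5%) and 31 lower (39.7%), with a median log2 fold change of -0.11. Over all tested genes 30.4% were higher and 30.3% lower. In the members' range of expression the shares were 28.6% and 41.3%. Dna2, a resection nuclease, had 12.8 and 15.3 CPM in IR and 32.5 and 36.7 CPM in nonIR (-1.30, SE 0.10, adjusted p = 2.11e-36). H2afx, the histone that ATM phosphorylates at breaks and MDC1 then binds, had 54.6 and 58.8 CPM in IR and 119 and 119 CPM in nonIR (-1.07, SE 0.05, adjusted p = 8.97e-85). Cenpx, a DNA-binding partner of FANCM, fell as well (-1.01, SE 0.11, adjusted p = 7.67e-20). Among genes with a mean of at least 5 CPM, those that rose most were Zranb3, which remodels stalled forks (0.93, SE 0.09, adjusted p = 3.80e-23), Rmi1, a partner of BLM (0.67, SE 0.10, adjusted p = 2.32e-10), and Wee1, the kinase that restrains entry into mitosis (0.61, SE 0.07, adjusted p = 1.57e-16). H2afx thus fell while its reader Mdc1 rose, and Cenpx fell while Fancm rose.

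Genes that follow the cell cycle were read beside the members. Of 20 genes of G2 and mitosis, 17 were higher (85%) and 1 was lower (5%), with a median log2 fold change of 0.39. Of 20 S phase genes 8 were higher (40%) and 8 lower (40%), with a median of -0.04. Over all tested genes the shares were 30.4% and 30.3%. The part of cell cycle genes in the changes of the repair genes was not tested.

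Promoter sequences were looked up in RefSeq (GRCm38.p6) for the 300 bases that end 50 bases after the annotated start, and 42 of the 53 members matched. The motif TTTCCCGC, a form bound by E2F factors that act on S phase genes, was searched on both strands. It was present in 7 of these 42 (16.7%), against 2.32% of 10587 tested genes with such a promoter. The looser form TTTNNCGC, which includes it, was in 8 of the 42 (19.0%), against 9.72% of tested genes. Those 7 were divided by response: Chek2, Fancg and Mdc1 rose, Brca2 and Xrcc6 fell, and Bard1 and Rad51c did not pass. The windows below are on the strand of the gene, with the motif or its reverse complement in capitals, and show that members with the same motif went different ways.
Fancg, chr4:43010330-43010369, minus strand: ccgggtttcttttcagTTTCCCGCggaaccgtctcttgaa
Mdc1, chr17:35841466-35841505, plus strand: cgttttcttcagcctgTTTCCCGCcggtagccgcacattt
Chek2, chr5:110839815-110839854, plus strand: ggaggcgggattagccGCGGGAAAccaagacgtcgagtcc
Xrcc6, chr15:82016307-82016346, plus strand: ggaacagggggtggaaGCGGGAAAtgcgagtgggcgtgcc
Brca2, chr5:150522437-150522476, plus strand: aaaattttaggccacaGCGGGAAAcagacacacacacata
Bard1, chr1:71103158-71103197, minus strand: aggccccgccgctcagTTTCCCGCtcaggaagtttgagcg
Rad51c, chr11:87404936-87404975, minus strand: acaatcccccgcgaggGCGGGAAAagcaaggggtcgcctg

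The motif begins 52 bases before the RefSeq start in Fancg, 16 in Mdc1 and 46 in Xrcc6. In Fancg and Xrcc6 this start and the motif lie within the GENCODE gene span given above. CCAAT, the box bound by NF-Y, was found on either strand in 25 of the 42 members (59.5%), against 42.9% of tested genes. It was in 11 of the 14 matched members that rose, in 7 of the 14 that fell and in 7 of the 14 not called. The core of interferon-responsive elements, GAAA, any 2 bases and GAAA, was searched in the same way and was in 4 of the 42 (9.52%), against 3.67% of tested genes: Brca2, Brip1, Chek1 and Fancg. TGACGT, the core of the cAMP response element, was in 7 of the 42 (16.7%), against 13.1% of tested genes, and TTTGAA, the CHR element of late cell cycle genes, in 5 (11.9%), against 14.6%. Whole promoters are given for the members with this E2F form that changed by the widest margins in each direction, Fancg and Xrcc6. In Fancg, capitals mark TTTCCCGC and the reverse complement of the interferon element, which share bases. In Xrcc6, capitals mark the reverse complements of TTTCCCGC and of CCAAT.
Fancg, chr4:43010252-43010551, minus strand: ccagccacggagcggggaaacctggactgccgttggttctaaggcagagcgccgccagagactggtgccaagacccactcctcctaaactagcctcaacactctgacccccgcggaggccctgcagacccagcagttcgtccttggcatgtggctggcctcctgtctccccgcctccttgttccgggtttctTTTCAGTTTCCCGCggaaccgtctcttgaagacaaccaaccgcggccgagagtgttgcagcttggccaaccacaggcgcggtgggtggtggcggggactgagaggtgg
Xrcc6, chr15:82016119-82016418, plus strand: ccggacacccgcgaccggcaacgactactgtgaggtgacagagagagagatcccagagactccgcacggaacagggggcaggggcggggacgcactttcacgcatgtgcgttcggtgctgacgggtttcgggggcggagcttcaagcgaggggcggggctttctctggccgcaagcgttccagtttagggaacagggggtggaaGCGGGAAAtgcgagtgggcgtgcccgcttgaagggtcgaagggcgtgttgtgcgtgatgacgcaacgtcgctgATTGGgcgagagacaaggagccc
A match is a run of letters and not a site shown to be bound.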

How the data were processed

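Bulk RNA-seq libraries of MC38 cells were used, 2 irradiated and 2 not, with groups and replicate numbers from the sample titles (the description of nonIR replicate 2 repeats that of replicate 1, and the title was followed). The values the authors deposited are raw counts of reads per gene, without normalization and with each library in its own column. Per the submitters' processing notes, the tools were HTSeq, HISAT, HISAT2 and DESeq2 and the build mm10, with no versions or roles. The annotation release and the strand setting are not given. Symbols, exons and coordinates (GRCm38, 1-based) come from GENCODE M21, and 189 of 26561 genes had no symbol.

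Counts were tested with edgeR 4.0.16 in R 4.3.3 (TMM, filterByExpr, robust glmQLFit, glmQLFTest) on the whole table, two-sided, with Benjamini-Hochberg adjustment over 15298 genes. A gene was called, or said to have risen or fallen, at an adjusted p under 0.05. CPM are counts per 1000000 of the TMM-scaled library size. Standard errors (SE) were obtained as |log2 fold change| over the square root of F. For 90.0% of genes the spread was that of the fitted trend. The pipeline was tested on simulated counts.

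Members and lists were chosen with earlier results of these data known. All 53 members are named; in each role, up to 4 called members in each direction with a mean of at least 5 CPM get full values, as do the 3 most changed other pathway genes in each direction. DESeq2 1.42.0, RLE scaling, no filter, a minimum fold of 1.2 (glmTreat), a replicate block, leaving out each library and leaving out overlapped genes were the alternatives, with upper-quartile scaling added after the data were seen.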

Additional observations from a re-analysis of the deposited data

How the results depend on the processing

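Of the 33 called members, 26 kept their call and direction under every alternative other than a minimum fold, and none of the 33 changed direction. A minimum fold of 1.2 asks for larger changes by construction: it called 10 members higher and 8 lower (39.1% of all tested genes passed, with 2791 lower), 3 sensing genes lower, 2 and 1 recombination genes higher and lower, 2 and 2 Fanconi genes, 8 and 20 other pathway genes, and 14 and 5 cell cycle genes. Without members whose exons overlap another gene, 5 members were lower: 3 of sensing, 1 of end joining (and 1 higher), 1 of the Fanconi pathway (and 3 higher) and 0 of recombination (and 3 higher). In recombination 0 of the 10 remaining genes were lower at an unadjusted p under 0.05 in edgeR, and 0 by DESeq2. Leaving out 1 library gave 1 to 2 lower end-joining genes and 2 to 3 lower Fanconi genes. Members near 0 changed sign: Bard1 with upper-quartile factors (0.0552), and, when 1 library was left out, Bard1 (-0.0893 to 0.0440), Rad52 (-0.0258 to 0.0936) and Fanci (-0.0781 to 0.14). The cause was not tested. The labels do not say that replicate numbers pair libraries, and same-numbered libraries did not deviate together (Pearson r = -0.0106 across genes). With the replicate number as a block, 17 members were higher and 15 lower; Fanca no longer passed (adjusted p = 0.0514). DESeq2 called 17 higher and 16 lower. Atrip, Nhej1, Rnf8 and Rad51b had few counts each, which limits their estimates. Atrip and Rnf8 also share exons with another gene on the same strand, and the part of this in their low counts was not tested.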
